A study of Homo sapiens with 6 samples.

Results

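The genes described here form a module of 54 genes that encode proteins of the lysosomal membrane and of the mTORC1 nutrient-sensing machinery that sits on it. Members were chosen by name, though earlier results of these data were known at the time. They are 8 membrane proteins, 6 ion channel and chloride exchanger genes, 7 solute transporters and 33 genes of the TFEB family and of mTORC1 sensing. All 54 are among the 20442 genes of the count table, and 53 were among the 12650 genes with enough reads to be tested. Total RNA was sequenced from T24 cells, an established line from a human urinary bladder carcinoma, 24 h after small interfering RNA (siRNA) had been added. The first group (si-NC, 3 libraries) is the comparison group, which the labels call NC knockdown, and the second (si-KNSTRN, 3 libraries) had KNSTRN knocked down, a gene whose product acts at kinetochores and the mitotic spindle. Cells of both groups had first been left to attach for 24 h and share the same line, medium and handling. The siRNA sequences were not part of the sources used here, and RNA was measured at a single time, without protein or kinase activity.

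As background, the lysosome breaks down macromolecules and exports the amino acids, sugars and ions that result through transporters and channels in its membrane. Amino acids that are released there act through the Rag GTPases, which Ragulator anchors to the membrane, and recruit the kinase complex mTORC1, which RHEB then activates. When nutrients are short, mTORC1 leaves the membrane, and transcription factors of the TFEB family enter the nucleus and bind E-box words in the promoters of lysosomal genes.

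The libraries held 16386799 to 20596074 counted reads, so that the limit of 3 reads behind a count of 0 stood for 0.146 to 0.183 CPM, the counts scaled to library size. Values of single libraries are listed below in the order of libraries 1 to 3, si-NC first. KNSTRN itself was counted 777, 663 and 762 times in si-NC and 269, 245 and 226 times in si-KNSTRN cells, a log2 fold change of -1.62 with an SE of 0.07 (edgeR adjusted p = 1.7e-11). The first principal component, with 78.7% of the variance, separated the groups, and on the second, with 7.15%, si-KNSTRN library 3 lay at 16.8 against -11.2 and -8.26 for the other si-KNSTRN libraries. Of 7 epithelial markers, CDH1 and KRT5 had at most 3 reads in every library, and the summed level of the list, mostly keratins, was 2834 to 3001 CPM in si-NC and 3077 to 3244 CPM in si-KNSTRN libraries. Among 6 markers of urothelial differentiation, UPK1B, UPK2 and UPK3A had at most 3 reads throughout, and the sum went from 28.7 to 32.8 CPM up to 44.3 to 49.2 CPM, nearly all of it PPARG (log2 fold change 0.64), while the low UPK1A had a log2 fold change of -2.20 (edgeR adjusted p = 0.00024). The mesenchymal list, of which COL1A2 and DCN had at most 3 reads and VIM held nearly all of the sum, went from 6369 to 6916 CPM down to 3720.0 to 4145 CPM. The part of these marker lists in the results below was not tested. In bulk RNA, fewer cells of a kind and less RNA per cell cannot be told apart.

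Promoters are shown first for 4 members in which the E-box CACGTG is found and which moved in opposite directions. They are RefSeq stretches from 250 bases before to 50 bases after a listed start (build GRCh38.p14), written 5′ to 3′ on the strand of the gene, with each CACGTG in capitals. LAMP1, a membrane glycoprotein gene that fell, has the most E-boxes of the module, and RRAGC, a Rag GTPase gene, fell the most among members with one. MCOLN1, a calcium channel gene, and SLC36A1, an amino acid transporter gene, both rose. The stretch of SLC36A1 belongs to a start inside the gene, 103007 bases after its outermost RefSeq start.
LAMP1, chr13:113296989-113297288, plus strand: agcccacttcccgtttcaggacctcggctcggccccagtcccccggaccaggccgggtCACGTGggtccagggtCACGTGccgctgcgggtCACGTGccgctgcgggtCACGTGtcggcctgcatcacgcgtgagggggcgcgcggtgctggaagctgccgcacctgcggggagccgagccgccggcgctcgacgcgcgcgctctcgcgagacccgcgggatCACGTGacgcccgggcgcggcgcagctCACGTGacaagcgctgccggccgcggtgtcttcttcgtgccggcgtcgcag
RRAGC, chr1:38859723-38860022, minus strand: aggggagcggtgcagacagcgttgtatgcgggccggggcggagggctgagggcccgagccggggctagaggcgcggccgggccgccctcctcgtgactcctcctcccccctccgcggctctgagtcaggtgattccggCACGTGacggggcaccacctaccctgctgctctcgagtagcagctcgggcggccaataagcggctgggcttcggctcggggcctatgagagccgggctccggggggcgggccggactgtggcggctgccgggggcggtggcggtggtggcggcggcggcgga
MCOLN1, chr19:7522374-7522673, plus strand: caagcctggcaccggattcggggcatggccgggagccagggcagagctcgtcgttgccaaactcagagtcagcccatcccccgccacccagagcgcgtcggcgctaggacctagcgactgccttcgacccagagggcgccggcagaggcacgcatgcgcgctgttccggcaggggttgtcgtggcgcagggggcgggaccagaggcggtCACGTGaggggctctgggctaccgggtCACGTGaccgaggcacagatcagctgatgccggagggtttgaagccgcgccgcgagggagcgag
SLC36A1, chr5:151447353-151447652, plus strand: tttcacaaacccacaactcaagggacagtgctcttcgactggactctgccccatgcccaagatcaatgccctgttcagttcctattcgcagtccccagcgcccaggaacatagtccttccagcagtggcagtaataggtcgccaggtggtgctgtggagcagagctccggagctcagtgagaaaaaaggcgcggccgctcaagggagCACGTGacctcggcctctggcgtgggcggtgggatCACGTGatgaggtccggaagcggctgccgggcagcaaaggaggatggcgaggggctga

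LAMP1 holds 6 E-boxes in this stretch, MCOLN1 and SLC36A1 hold 2 each and RRAGC holds 1. Of the 54 members, 47 have a promoter in the RefSeq table, and in 13 of these (27.7%) at least 1 listed promoter contains CACGTG, a word that reads the same on both strands. The same word was found for 12.4% of the 10272 tested genes with a promoter in the table and for 8.77% of all 27305 genes in it. The longer word TCACGTG, searched on both strands and always overlapping a CACGTG, was found for 11 members (23.4%) against 7.13% of tested genes. Of 37 genes known as TFEB targets, a list that was itself drawn up for such words, 20 have a promoter in the table. In 12 of these 20 genes (60%) at least 1 listed promoter contains CACGTG. These shares describe letters only, and binding was not measured.

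The word did not go with one direction of change. Among the 13 members that hold it, 5 were called higher (38.5%), 6 lower (46.2%) and 2 were not called. Calls over all genes tested were 31.2% higher and 31.3% lower. Of the tested genes with a promoter in the table, CACGTG was found for 13.8% of those called higher and 12.1% of those called lower. The Rag gene RRAGB has 3 E-boxes, CLCN7, CLN3 and FNIP1 have 2 each, and LAMTOR1, LAMTOR4, TSC2, CD63 and NPRL3 have 1. In CD63 and NPRL3 the flanking T is missing. The stretches lie at the outermost start of the gene in 11 of the 13 members, and at an inner start in CD63 and SLC36A1.

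**Figure D1:**
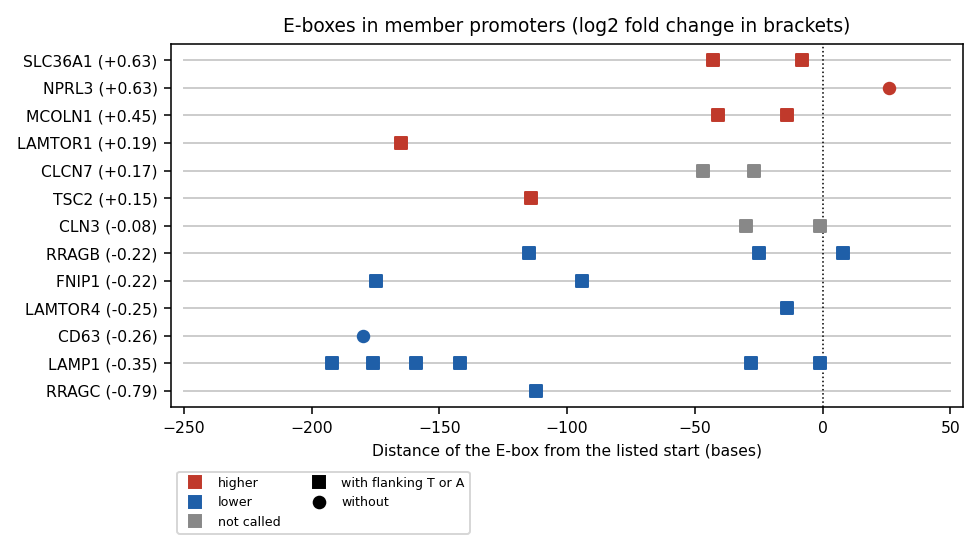
Position of each CACGTG (markers) in the promoters of the 13 members that hold it, in bases from the listed start (dotted line), 1 gene per row with its log2 fold change in brackets and 1 listed promoter drawn per gene. Squares are words with the flanking T of TCACGTG on either strand and circles are without it. Genes that rose (red), fell (blue) or were not called (grey) are all present, and 4 of the 6 words of LAMP1 lie close together well before the start.

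Of the 53 members tested, edgeR's quasi-likelihood test with Benjamini-Hochberg adjustment called 18 higher and 21 lower after the knockdown (adjusted p under 0.05), and 14 were not called. The largest changes were a fall of DDIT4, an mTORC1 inhibitor gene, to 0.322 times its si-NC level and a rise of MITF, a TFEB relative, to 2.08 times. No other member reached a 2-fold change. Membrane glycoprotein genes leaned downward, with 75.0% called lower, and 3 of 4 Rag GTPase genes fell, against 31.3% of all genes tested. Among these Rag genes, RRAGB kept its call under only 9 of 14 other settings. The GATOR and FLCN complexes each had members that rose and members that fell. In the TSC complex TSC2 was called higher and TSC1 lower, but each call was lost under at least 1 other setting.

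The knockdown changed a large share of all genes, so these counts have to be read beside the background. Calls in either direction made up 73.6% of the tested members against 62.5% of all genes tested, calls higher 34% against 31.2%, and calls lower 39.6% against 31.3%. A change of at least 1.5-fold with a call was met in 11 members (20.8%), 6 higher and 5 lower, against 19.2% of all genes. Libraries of the 2 groups did not overlap in 38 members (71.7%), against 67.3% of all genes. The median log2 fold change was -0.06 over members and -0.01 over all genes, and the median absolute value was 0.22 against 0.28. The module as a whole thus lay close to the background, and 18 of its 39 called members differed by less than 1.25-fold.

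**Figure D2:**
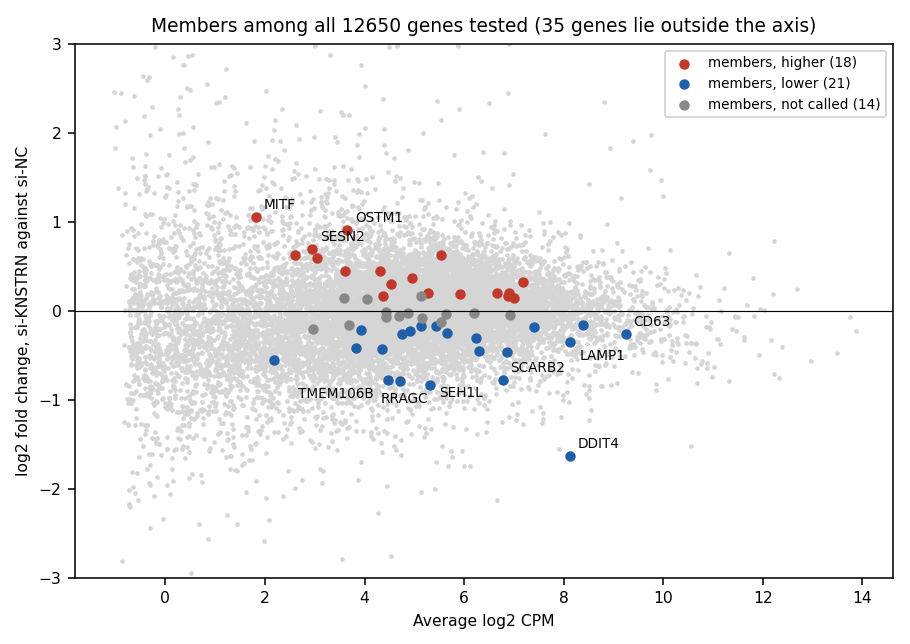
Log2 fold change of si-KNSTRN against si-NC (vertical axis) by average log2 CPM (horizontal axis) for the 12650 genes tested (light grey), with members that were higher (red, 18), lower (blue, 21) or not called (dark grey, 14). The members lie within the cloud of all genes, with DDIT4 at -1.63 far below the other members.

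Membrane, channel and transporter genes and the sensing genes gave different counts, though the difference itself was not tested. Of the 21 genes of the first kind, 5 were higher (23.8%), 8 lower (38.1%) and 8 not called, with a median log2 fold change of -0.08. Of the 32 tested genes of the second kind, 13 were higher (40.6%), 13 lower (40.6%) and 6 not called, with a median of -0.03. Over all genes tested, 31.2% were higher and 31.3% lower.

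**Figure D3:**
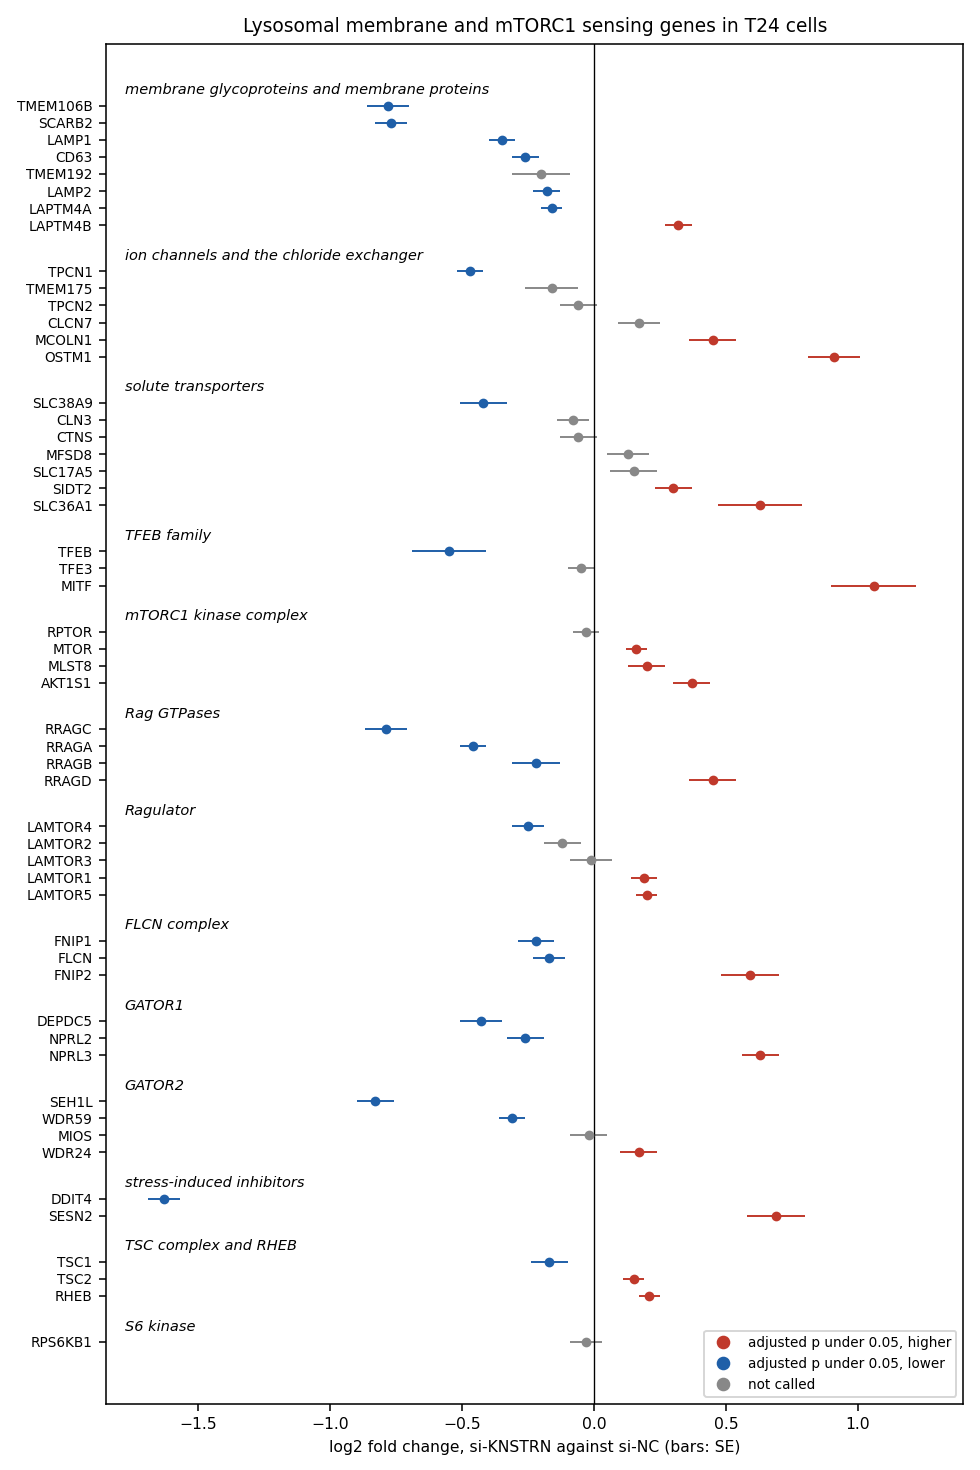
Log2 fold change of each tested member, si-KNSTRN against si-NC (horizontal axis, points), with its standard error (bars), grouped by complex or function. Red members were called higher, blue ones lower and grey ones not called. To the left of 0 in blue lie 6 of 8 membrane proteins and 3 of 4 Rag GTPases, where 31.3% of all genes tested were called lower. The call of RRAGB was lost under some other settings.

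The membrane protein genes of the module mostly fell: 6 of 8 were lower (75.0%), 1 was higher and 1 was not called, with a median log2 fold change of -0.23. Over all genes tested, 31.3% were called lower. SCARB2 (chr4:76158737-76234532) encodes LIMP-2, the receptor that carries glucocerebrosidase to lysosomes. Its level was 138, 131 and 145 CPM in si-NC and 87.0, 83.9 and 71.5 CPM in si-KNSTRN libraries, a log2 fold change of -0.77 with an SE of 0.06 (edgeR adjusted p = 2.5e-08). TMEM106B (chr7:12211294-12243367), a transmembrane protein gene tied to lysosome size and transport, stood at 27.9, 24.9 and 30.8 CPM against 16, 16.6 and 16.2 CPM, a log2 fold change of -0.78 with an SE of 0.08 (edgeR adjusted p = 3.2e-07). In both genes every si-KNSTRN library lay well below every si-NC library.

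LAMP1 and LAMP2 encode the heavily glycosylated proteins that make up much of the membrane's inner coat. LAMP1 (chr13:113297239-113323672) was at 315, 317 and 307 CPM in si-NC and 249.6, 254 and 232 CPM in si-KNSTRN libraries, so it fell by 21.6% (edgeR adjusted p = 6e-06). LAMP2, also the receptor of chaperone-mediated autophagy in one of its isoforms, was at 178, 173 and 189 CPM against 164, 157 and 155 CPM and fell by 12% (edgeR adjusted p = 0.0028). The groups did not overlap in either gene, but the change of LAMP2 was small beside that of SCARB2.

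CD63, a tetraspanin gene of late endosomes and lysosomes, fell from 661 ± 25.9 to 552 ± 20.9 CPM (SD, n = 3; edgeR adjusted p = 0.0002). The related genes LAPTM4A and LAPTM4B went in opposite directions, with log2 fold changes of -0.16 (adjusted p = 0.0048) and 0.32 (edgeR adjusted p = 2.6e-05). LAPTM4B, which encodes a membrane protein often raised in carcinomas, was the only one of the 8 that rose, from 127 to 132 CPM in si-NC up to 153 to 172 CPM. TMEM192 had a log2 fold change of -0.20 (adjusted p = 0.13), its groups overlapped, and it was called without si-KNSTRN library 3 (-0.29, adjusted p = 0.039). Per length, the order in si-NC cells was CD63 with 536 ± 21 CPM per kb of transcript, LAPTM4A with 199 ± 2.95, LAMP1 with 116 ± 1.85 and LAMP2 with 44.7 ± 1.96.

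Ion channel genes were divided, with 2 higher (33.3%), 1 lower (16.7%) and 3 not called, against 31.2% higher and 31.3% lower over all genes tested. OSTM1 (chr6:108041409-108074741), the partner that stabilises the chloride-proton exchanger CLC-7, had 8.57, 9.27 and 8.08 CPM in si-NC and 14.9, 15.6 and 18.2 CPM in si-KNSTRN libraries. It rose 1.88-fold (log2 fold change 0.91, SE 0.10, edgeR adjusted p = 6.3e-07), the second largest rise of the module. CLCN7, the gene of the exchanger itself, went from 32.7 ± 2.89 to 36.9 ± 2.84 CPM and was not called (adjusted p = 0.058). That result sits at the threshold: it was called with library size alone, without the low-count filter, and without si-NC library 1 (adjusted p = 0.021) or si-KNSTRN library 1 (adjusted p = 0.043). The RNA of OSTM1 thus rose by more than that of its partner in these libraries, a difference between genes that was not tested.

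MCOLN1 encodes TRPML1, a calcium channel of the lysosomal membrane, and TPCN1 and TPCN2 encode its sodium and calcium two-pore channels. MCOLN1 had 17.7, 17.0 and 15.1 CPM in si-NC and 20.9, 21.7 and 25.5 CPM in si-KNSTRN libraries, a rise of 1.37-fold (edgeR adjusted p = 0.00029). TPCN1 moved the other way, from 142, 135 and 129 CPM to 104, 97.2 and 93.1 CPM, and fell by 27.6% (edgeR adjusted p = 9.7e-07). TPCN2 and the potassium and proton channel gene TMEM175 had log2 fold changes of -0.06 and -0.16, their groups overlapped, and neither was called.

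The solute transporters changed little as a group, with 2 of 7 higher (28.6%), 1 lower (14.3%) and 4 not called. Over all genes tested, 31.2% were higher and 31.3% lower. SLC38A9, a transporter and arginine sensor that signals to the Rag GTPases, had 16.3, 15.7 and 16.6 CPM in si-NC and 13.5, 12.2 and 10.7 CPM in si-KNSTRN libraries and fell by 25.2% (edgeR adjusted p = 0.00075). SLC36A1, a proton-coupled amino acid transporter also linked to mTORC1 activation, had 3.4, 5.78 and 5.11 CPM against 6.88, 7.65 and 7.38 CPM, a log2 fold change of 0.63 with an SE of 0.16 (edgeR adjusted p = 0.0021). Its si-NC library 1 is the lowest, and without that library the log2 fold change was 0.42 (adjusted p = 0.016). The members of this group that are best known for amino acid signalling to mTORC1 therefore went in opposite directions.

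SIDT2, linked to the uptake of nucleic acids into lysosomes, had 20.9, 20.9 and 20.0 CPM in si-NC and 23.8, 25.2 and 27.2 CPM in si-KNSTRN libraries, a rise of 1.23-fold. CTNS, the cystine exporter, SLC17A5, the sialic acid exporter, and CLN3 and MFSD8, both disease genes of neuronal ceroid lipofuscinosis, had log2 fold changes from -0.08 to 0.15, and none was called. Of these 4, only SLC17A5 had groups that did not overlap, at 10.9 to 11.8 CPM against 12.3 to 12.9 CPM.

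**Figure D4:**
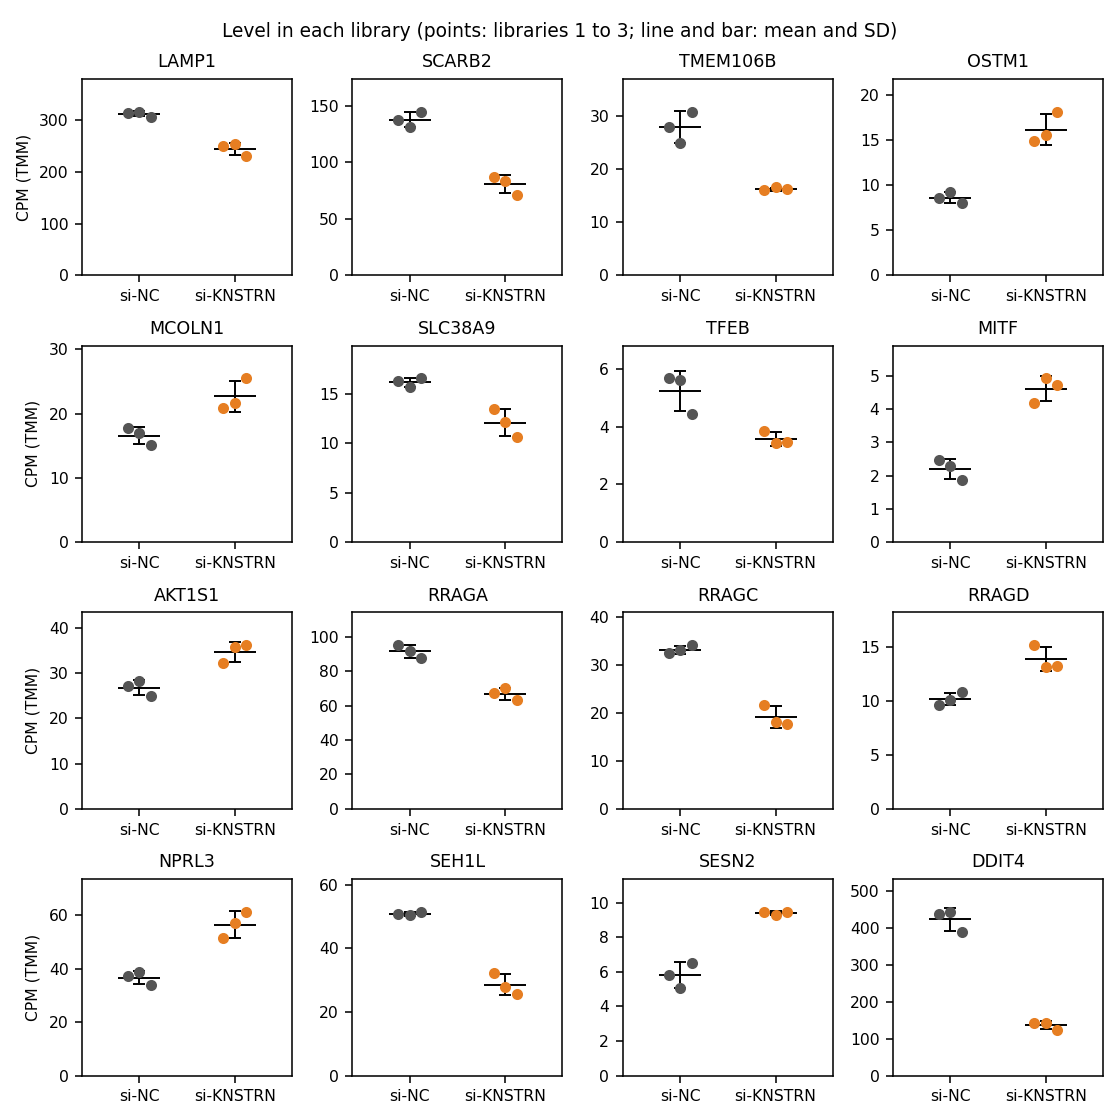
TMM-scaled CPM (vertical axes, from 0) in the si-NC (grey) and si-KNSTRN (orange) libraries for 16 members, with points for libraries 1 to 3 from left to right, a line for the mean and bars for the SD. The 16 were picked from called members, and in each of their panels the 2 groups do not overlap. The groups did not overlap in 71.7% of tested members and in 67.3% of all genes tested. DDIT4 goes from 388 to 444 CPM down to 124 to 143 CPM.

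The TFEB family was divided as well, in a pattern that sets the abundant TFE3 against its rarer relatives. TFE3 was at 128, 125 and 116 CPM in si-NC and at 119 CPM in each si-KNSTRN library, and was not called (log2 fold change -0.05, adjusted p = 0.39). TFEB (chr6:41683978-41736223) had 5.67, 5.6 and 4.45 CPM against 3.84, 3.44 and 3.45 CPM and fell by 31.6% (SE 0.14 on the log2 scale, edgeR adjusted p = 0.0029). MITF (chr3:69739464-69968332) had 50, 37 and 34 reads against 83, 89 and 88 reads, or 2.46, 2.3 and 1.87 CPM against 4.2, 4.93 and 4.74 CPM. Its rise of 2.08-fold (edgeR adjusted p = 2.3e-05) started from a level near the low end of the module.

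Per length, TFE3 RNA was far above the others in both groups. TFE3 stood at 36.0 ± 1.86 CPM per kb in si-NC cells, TFEB at 2.23 ± 0.29 and MITF at 0.459 ± 0.0639 (SD, n = 3). Within each library, the ratio of TFEB to TFE3 was 0.0557 to 0.0651 in si-NC and 0.0419 to 0.0469 in si-KNSTRN cells, and the ratio of MITF to TFE3 0.0114 to 0.0136 against 0.0251 to 0.0294. Neither ratio overlapped between groups, with an exact two-sided permutation p of 0.1, the smallest that 3 against 3 libraries can give. Per length, the rise of MITF left its RNA below that of TFEB, at 0.96 ± 0.0791 against 1.52 ± 0.0987 CPM per kb in si-KNSTRN cells. That order rests on the transcripts used, of 4814 bases for MITF and 2354 for TFEB. Before division by length, MITF was the higher in si-KNSTRN cells, at 4.62 ± 0.381 against 3.57 ± 0.232 CPM.

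Genes of the mTORC1 kinase complex rose slightly or were not called. AKT1S1, which encodes the inhibitory subunit PRAS40, had 27.2, 28.2 and 24.9 CPM in si-NC and 32.2, 35.8 and 36.2 CPM in si-KNSTRN libraries, a rise of 1.3-fold (edgeR adjusted p = 0.00023). The kinase gene MTOR had 111, 111 and 112 CPM against 125, 124 and 126 CPM, a rise of 1.12-fold that was small and yet larger than the spread within groups (edgeR adjusted p = 0.0034). RPTOR, the scaffold that recognises substrates, had a log2 fold change of -0.03 (adjusted p = 0.71), and its groups overlapped.

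MLST8, the small subunit bound to the kinase domain, had 38.4, 34.6 and 34.2 CPM against 38.2, 41.6 and 43.5 CPM and was called higher with a log2 fold change of 0.20 (edgeR adjusted p = 0.018). Its groups overlapped, and the call was lost with upper-quartile factors and in 4 fits that left out a library (adjusted p = 0.069 without si-NC library 2, 0.071 without si-NC library 3, 0.058 without si-KNSTRN library 2 and 0.064 without si-KNSTRN library 3). RPS6KB1, the gene of the S6 kinase that mTORC1 phosphorylates, had 48.7, 49.6 and 52.3 CPM against 51.1, 44.4 and 51.7 CPM, with overlapping groups (log2 fold change -0.03, SE 0.06, adjusted p = 0.67).

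Rag GTPases work as pairs of RagA or RagB with RagC or RagD, and the genes of both sides of the pair changed. RRAGC (chr1:38838198-38859772) had 32.4, 33 and 34.1 CPM in si-NC and 21.7, 18.0 and 17.7 CPM in si-KNSTRN libraries, a log2 fold change of -0.79 with an SE of 0.08 (edgeR adjusted p = 2.2e-07). RRAGD (chr6:89364616-89412273) went the other way, from 9.66, 10.1 and 10.8 CPM to 15.2, 13.2 and 13.3 CPM, a log2 fold change of 0.45 with an SE of 0.09 (edgeR adjusted p = 0.00047). Within each library, RRAGC per length exceeded RRAGD 6.01, 5.83 and 5.64 times in si-NC but 2.56, 2.43 and 2.39 times in si-KNSTRN cells (exact permutation p = 0.1, the smallest possible). The C-to-D balance of these RNAs was thus lower in every si-KNSTRN library than in any si-NC library.

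On the other side of the pair, RRAGA (chr9:19049427-19051025) had 95.2, 91.7 and 87.7 CPM in si-NC and 67.2, 70.0 and 63.3 CPM in si-KNSTRN libraries and fell by 27.1% (edgeR adjusted p = 9.8e-07). RRAGB had 15.3, 15.2 and 18.4 CPM against 14.1, 13.2 and 14.5 CPM, with a log2 fold change of -0.22 at the edge of the threshold (edgeR adjusted p = 0.043). Without si-NC library 3, the highest of the 6, RRAGB had a log2 fold change of -0.13 (adjusted p = 0.22), and its call was also lost with DESeq2, with library size alone and without si-KNSTRN library 1 or 2 (adjusted p = 0.065 and 0.14). The ratio of RRAGA to RRAGB per length overlapped between groups, at 6.2 to 8.08 in si-NC and 5.64 to 6.85 in si-KNSTRN cells (exact permutation p = 0.2).

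Ragulator genes changed by at most 0.25 on the log2 scale. LAMTOR5 had 111, 115 and 111 CPM in si-NC and 128, 129 and 129 CPM in si-KNSTRN libraries, and LAMTOR1, the subunit with the lipid anchor, 57.1, 56.7 and 56.5 CPM against 65.1, 63.8 and 65.3 CPM. They rose 1.15-fold and 1.14-fold (adjusted p = 0.00086 and 0.0017 by edgeR). LAMTOR4 had 55.8, 56.5 and 52.1 CPM against 44.7, 48.2 and 45.3 CPM and fell by 16% (edgeR adjusted p = 0.00087). Subunits that assemble into one pentamer therefore moved apart, by small amounts that exceeded the spread between libraries.

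LAMTOR3 had a log2 fold change of -0.01 and LAMTOR2 of -0.12 (adjusted p = 0.11), neither of them called. LAMTOR2 was called lower with upper-quartile factors and without si-NC library 3 (-0.18, adjusted p = 0.018). Per length, LAMTOR5 was the highest at 129 ± 2.53 CPM per kb in si-NC cells, followed by LAMTOR4 at 90.6 ± 3.9, LAMTOR2 at 74.2 ± 6.33, LAMTOR1 at 48.2 ± 0.241 and LAMTOR3 at 5.13 ± 0.137. The low value of LAMTOR3 rests on a transcript of 4226 bases, most of it 3′ UTR, and would be higher for a shorter form.

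**Figure D5:**
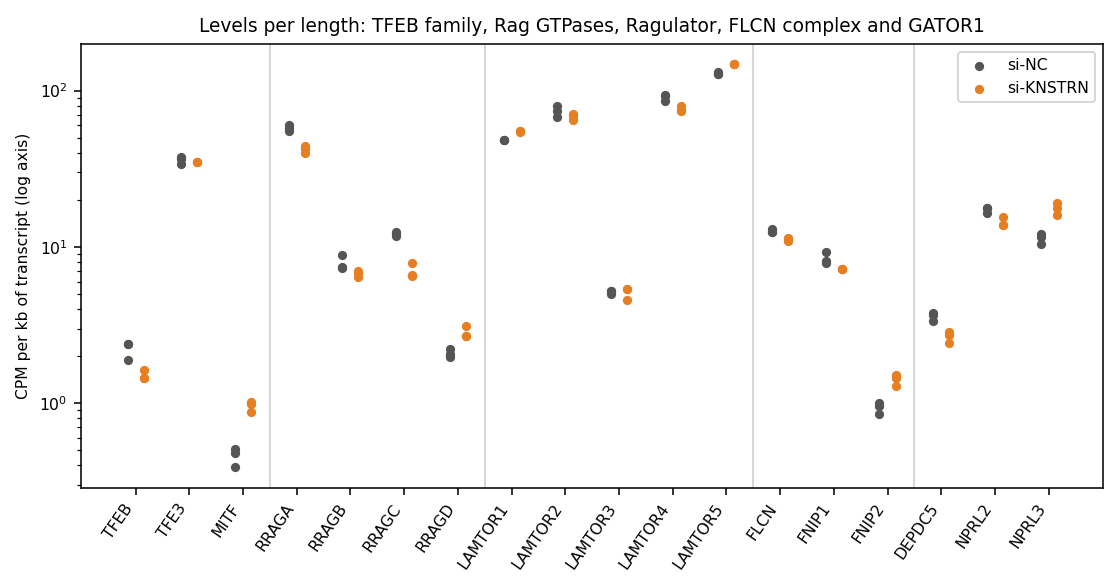
CPM per kb of transcript (log axis) in each si-NC (grey) and si-KNSTRN (orange) library for the TFEB family, Rag GTPases, Ragulator, FLCN complex and GATOR1, with vertical lines between families. RRAGC falls and RRAGD rises, so that their distance shrinks from 5.83 to 2.46 times on average.

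The FLCN complex, made of folliculin and FNIP1 or FNIP2, acts on RagC and RagD and is needed for mTORC1 to phosphorylate TFEB and TFE3. FNIP2 had 6.6, 6.9 and 5.93 CPM in si-NC and 8.85, 10.5 and 9.96 CPM in si-KNSTRN libraries and rose 1.51-fold (log2 fold change 0.59, SE 0.11, edgeR adjusted p = 0.00017). FNIP1 had 30.5, 31.4 and 35.4 CPM against 27.7, 27.9 and 27.8 CPM and fell by 14.4% (edgeR adjusted p = 0.0095). FNIP1 per length exceeded FNIP2 8.19 to 10.8 times in si-NC and 4.77 to 5.64 times in si-KNSTRN cells, without overlap (exact permutation p = 0.1).

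FLCN had 45.2, 47.3 and 45.2 CPM against 39.5, 41.2 and 41.6 CPM and fell by 11.2% (edgeR adjusted p = 0.015). Its call was lost with library size alone and without si-NC library 2 (adjusted p = 0.06), and without si-KNSTRN library 1 it was just inside the threshold (adjusted p = 0.04995). As with RRAGC and RRAGD, the more abundant of the alternative partners, FNIP1, was lower and the rarer one, FNIP2, was higher. The pair RRAGA and RRAGB did not follow that pattern, with log2 fold changes of -0.46 and -0.22.

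GATOR1 switches off RagA and RagB when amino acids are short, and its 3 genes did not change together. NPRL3 (chr16:85386-138673) had 37.2, 38.6 and 33.8 CPM in si-NC and 51.3, 57.0 and 61.3 CPM in si-KNSTRN libraries and rose 1.55-fold (SE 0.07 on the log2 scale, edgeR adjusted p = 9.4e-07). DEPDC5, the subunit that binds the Rag GTPases, had 21.7, 23.6 and 24.4 CPM against 17.6, 18.4 and 15.7 CPM and fell by 25.8% (edgeR adjusted p = 0.00017). NPRL2, the catalytic partner of NPRL3, had 30.1, 30.2 and 28.1 CPM against 23.5, 23.6 and 26.5 CPM and fell by 16.6% (edgeR adjusted p = 0.0037). All 3 had groups that did not overlap, as did 67.3% of all genes tested, with NPRL3 up and both partners down.

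NPRL2 shares 23.4% of its transcript with CYB561D2 on the opposite strand, and without strand information the reads of both cannot be told apart. GATOR2 opposes GATOR1, and its SEH1L gene fell the most among the 7 GATOR genes. SEH1L (chr18:12948011-12987536), which also encodes a subunit of the nuclear pore, had 50.7, 50.4 and 51.5 CPM in si-NC and 32.1, 27.8 and 25.6 CPM in si-KNSTRN libraries, a log2 fold change of -0.83 with an SE of 0.07 (edgeR adjusted p = 5.2e-08). WDR59 had 85.2, 82.4 and 83.5 CPM against 66.1, 68.4 and 68.2 CPM and fell by 19.3% (edgeR adjusted p = 1.6e-05). MIOS had a log2 fold change of -0.02 and overlapping groups.

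WDR24 had 19.7, 19.2 and 18.9 CPM against 20.6, 21.9 and 22.4 CPM and was called higher by a narrow margin (log2 fold change 0.17, edgeR adjusted p = 0.043). That call was lost with the replicate block (adjusted p = 0.071), with DESeq2, with upper-quartile factors, without the low-count filter, and without any library other than si-KNSTRN library 1. The adjusted p was 0.06, 0.09 and 0.08 without si-NC library 1, 2 or 3 and 0.12 and 0.14 without si-KNSTRN library 2 or 3. WDR24 also shares 38.2% of its transcript with a GENCODE gene on the opposite strand.

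The 2 stress-induced inhibitors changed in opposite directions. DDIT4 (chr10:72273924-72276036), also called REDD1, is induced by hypoxia, glucocorticoids and DNA damage and restrains mTORC1 through the TSC complex. It had 437, 444 and 388 CPM in si-NC and 143, 142 and 124 CPM in si-KNSTRN libraries, a log2 fold change of -1.63 with an SE of 0.06 (edgeR adjusted p = 3.3e-12). SESN2 (chr1:28259518-28282491), a leucine sensor that holds GATOR2 in check, had 5.81, 5.04 and 6.54 CPM against 9.46, 9.31 and 9.48 CPM and rose 1.62-fold (edgeR adjusted p = 4.6e-05). Per length, DDIT4 stood at 242 ± 17.5 CPM per kb against 1.68 ± 0.217 for SESN2 in si-NC cells, and at 78.0 ± 6.22 against 2.73 ± 0.0263 in si-KNSTRN cells, so DDIT4 RNA stayed the more abundant by far. In GENCODE, DDIT4-AS1 on the opposite strand covers 48.5% of the DDIT4 transcript, and the share of its reads in the DDIT4 count was not tested.

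The TSC complex switches off RHEB, the GTPase that activates mTORC1, and these genes changed little. RHEB had 91.6, 95.6 and 93.1 CPM in si-NC and 108, 109 and 106 CPM in si-KNSTRN libraries and rose 1.15-fold (edgeR adjusted p = 0.00067). TSC2, the subunit that acts on RHEB, had 121, 124 and 118 CPM against 131, 134 and 137 CPM and rose 1.11-fold (edgeR adjusted p = 0.0086), a call lost with upper-quartile factors (adjusted p = 0.051). RHEB shares 16.8% of its 50-base windows with other loci, RHEBP1 among them, so its count is less certain. Models on the same strand that GENCODE lists apart from the member, and that are not in the count table, cover 43.8% of the CLN3 transcript, 43.3% of RRAGC, 30.6% of FLCN and 27.9% of DEPDC5, and LAMTOR5-AS1 on the opposite strand covers 41.1% of LAMTOR5. How reads in these stretches were counted is not stated.

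TSC1, the stabilising subunit, had 38.9, 34.2 and 38.7 CPM against 31.8, 32.1 and 35.5 CPM, with overlapping groups and a log2 fold change of -0.17 (edgeR adjusted p = 0.04). It was not called without si-NC library 1 (adjusted p = 0.14), si-NC library 3 (0.11), si-KNSTRN library 1 (0.12) or si-KNSTRN library 2 (0.14), nor with DESeq2 or library size alone. TBC1D7, the remaining subunit, had 2, 0 and 1 reads in si-NC and none in si-KNSTRN libraries, too few to test. A count of 0 allows up to 0.152, 0.168 and 0.165 CPM in the si-KNSTRN libraries, and how reads shared with the readthrough gene at this locus were assigned is not stated.

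The word TGAGTA in 3′ UTRs had been met in earlier results of these data as more frequent among genes that fell, and the members are described against it here. With 1 transcript per gene, 14 of the 53 tested members (26.4%) hold it against 27.3% of 12336 tested genes. It was found in 6 of 21 members called lower (28.6%) and 4 of 18 called higher (22.2%), against 35.4% and 19.4% of all genes called lower and higher. RRAGC holds it 4 times, more often than any other member apart from TMEM192 with 5, and is shown with 2 further genes that fell and with OSTM1, which rose. Each line gives 24 bases of the 3′ UTR, 5′ to 3′ on the minus strand except for TMEM106B (GRCh38, GENCODE release 29), with TGAGTA in capitals.
RRAGC, chr1:38839133-38839156: gctttcattTGAGTAgactctaaa
RRAGC, chr1:38838862-38838885: cctatgttcTGAGTAccagatgtc
RRAGC, chr1:38838393-38838416: tggaccactTGAGTAcataagtgc
RRAGC, chr1:38838297-38838320: attctgactTGAGTAtttacatgg
SCARB2, chr4:76160852-76160875: agaatgtaaTGAGTAactgatttt
TMEM106B, chr7:12233525-12233548: aagttttctTGAGTAtcttcaatt
TMEM106B, chr7:12238727-12238750: cattgtcaaTGAGTAgtaatactt
OSTM1, chr6:108042708-108042731: ctacttttaTGAGTAccatcagct

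Members that fell the most, DDIT4 and SEH1L, have no TGAGTA in the transcript used. The word was present in some members that fell and in some that rose, and its share among members lay near that of all genes. Another transcript of a gene can have a different 3′ UTR, and no site was tested for function.

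Genes around the module gave further context and are set beside all genes tested, of which 31.2% were called higher and 31.3% lower. Of 31 tested genes that feed into mTORC1 and are not members, 12 (38.7%) were higher and 10 (32.3%) lower (median log2 fold change 0.12). AKT1, the kinase that inhibits TSC2, rose from 196 ± 5.71 to 275 ± 7.06 CPM (SD, n = 3). MAPKAP1, an mTORC2 subunit, TELO2, which helps assemble mTOR kinases, and SAR1B, a COPII GTPase linked to leucine sensing, rose by log2 fold changes of 0.46, 0.48 and 0.60. DEPTOR, an mTOR inhibitor gene chosen after its value was seen, fell by 0.98 on the log2 scale, from 5.78 ± 0.461 to 2.94 ± 0.346 CPM.

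Of 14 genes downstream of mTORC1, 5 (35.7%) were higher and 5 (35.7%) lower (median -0.04), against 31.2% and 31.3% of all genes. In this list 35.7% were called with at least a 1.5-fold change, against 19.2% of all genes. GRB10, an adaptor that mTORC1 phosphorylates, rose from 63.4 ± 2.09 to 122 ± 4.14 CPM. PDCD4, a translation repressor degraded after S6 kinase action, fell by 1.21 on the log2 scale, RPS6 by 0.89 and the initiation factor EIF4B by 0.84. These are RNA levels of the proteins that mTORC1 and S6 kinase modify, and the modification itself was not measured.

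Plasma membrane amino acid carriers mostly did not pass the test, with 3 of 9 higher (33.3%) and 1 lower (11.1%), against 31.2% and 31.3% of all genes. SLC43A2, a carrier of large neutral amino acids, rose from 2.19 ± 0.414 to 7.1 ± 1.3 CPM, SLC1A5 and SLC3A2 rose by log2 fold changes of 0.29 and 0.18, and the arginine carrier SLC7A1 fell by 0.29. Another 40 lysosomal membrane genes, not members, had 19 higher (47.5%) and 8 lower (20.0%), with a median of 0.12, against the same shares of all genes. The member membrane proteins leaned the other way, with 6 lower and 1 higher, a difference that was not tested. Among the 40, the cholesterol transporter NPC1 and the polyamine exporter ATP13A2 rose by log2 fold changes of 0.56 and 0.57, and CYB561A3 and ABCA2 fell by 1.00 and 0.46.

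Of 35 tested TFEB target genes outside the module, 15 (42.9%) were higher and 10 (28.6%) lower (median 0.03), against 31.2% and 31.3% of all genes. None of the 35 differed by 1.5-fold or more, while 19.2% of all genes were called with such a change. ATP6V0D1, a V-ATPase subunit, and MAP1LC3B, the autophagosome marker, rose by log2 fold changes of 0.58 and 0.55, and the hydrolase genes HEXA and SCPEP1 fell by 0.55 and 0.47. The targets thus changed in both directions, as did the 13 members with an E-box.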

How the data were processed

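T24 cells were sequenced after treatment with si-NC or si-KNSTRN, 3 libraries per group, grouped by the sample titles. The 3 libraries of a group are biological replicates per the series' design text. The authors deposited raw read counts per gene, with no normalization. HISAT2 2.0.1, featureCounts, fastp 0.20.0 and FastQC 0.11.5 are named, with build GRCh38, per the submitters' processing notes. Strand setting, annotation release and the handling of reads with several alignments: not given in the sources used here. No 2 replicates agreed within sampling noise (chi-square per degree of freedom 2.16 to 10.3). Floors cover counting error only, while the SEs and SDs include the spread between libraries.

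Counts were tested with edgeR 4.0.16 in R 4.3.3 (filterByExpr with a minimum count of 10, TMM scaling, two-sided quasi-likelihood test, no covariates). Benjamini-Hochberg adjustment ran over all 12650 genes, and genes were called at an adjusted p under 0.05. The biological coefficient of variation was 5.47%. Levels are CPM after TMM scaling. CPM per kb divides them by the length of 1 GENCODE release 29 transcript per gene (a 3′ UTR of at least 50 bases preferred, then the principal isoform). Gene coordinates and promoters are from RefSeq (GRCh38.p14), and 3′ UTRs from GENCODE. Ratios were compared by exact two-sided permutation tests, without adjustment over the 5 ratios, since none could fall under 0.1. Summaries used Python 3.11.15, pandas 2.3.3, numpy 2.4.6 and matplotlib 3.10.9. The test was also tried on simulated counts, drawn with the common dispersion of the main fit for every gene. Far fewer genes were changed there than the 62.5% called here, so that trial does not show how the test performs on these data.

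Every member is accounted for. Values per library are given for the 3 members with the smallest p in each group of genes and for LAMP1, LAMP2, MTOR, the Rag GTPases, SESN2, DDIT4 and RPS6KB1, and up to 4 called genes with the smallest p are named from each of 5 further lists. The members, lists and the word TGAGTA were chosen with earlier results of these data known. Alternatives were DESeq2-type size factors, library size alone, upper-quartile factors, DESeq2 1.42.0, limma-voom (limma 3.58.1), no filter on low counts, at least 1 CPM in 3 libraries as the filter, a replicate block, an adjusted p under 0.01, leaving out each library, and leaving out members with TGAGTA.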

Additional observations from a re-analysis of the deposited data

How the results depend on the processing

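Of the 39 called members, 33 were called under all 14 refits with other scalings, tools, filters, a replicate block or 1 library left out. The other 6 (MLST8, RRAGB, FLCN, WDR24, TSC1 and TSC2) lost the call under at least 1 and kept their direction. At an adjusted p under 0.01, 16 members were higher and 18 lower. With upper-quartile factors, 15 members were higher and 22 lower, among sensing genes 10 and 14, and over all genes 3489 and 4450. With library size alone, 19 members were higher and 18 lower, among sensing genes 13 and 10, and over all genes 4339 and 3577, so which direction had more calls turned with the scaling. Leaving out 1 library at a time gave 16 to 19 members higher and 19 to 22 lower. Among membrane, channel and transporter genes these counts were 5 to 6 and 8 to 9, and among sensing genes 11 to 13 in both directions. Over all genes they were 3624 to 3842 higher and 3597 to 3859 lower, and the log2 fold change of KNSTRN was -1.66 to -1.57. Without members that hold TGAGTA, 3 membrane, channel and transporter genes were higher and 4 lower instead of 5 and 8, since fewer members remain by construction.

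Changes of sign were met only in 4 members that were not called. With library size alone, log2 fold changes were 0.01 for RPTOR, 0.02 for LAMTOR3, 0.02 for MIOS and 0.00 for RPS6KB1. Leaving out 1 library at a time, RPTOR ran from -0.08 to 0.01 (0.00 without si-NC library 1, 0.01 without si-KNSTRN library 1), LAMTOR3 from -0.05 to 0.06 (the latter without si-KNSTRN library 3), MIOS from -0.06 to 0.04 (0.00 without si-NC library 2, 0.04 without si-KNSTRN library 2) and RPS6KB1 from -0.07 to 0.03 (the latter without si-KNSTRN library 2). Scaling moved the median of all genes by at most 0.04. Replicate numbers did not pair the samples: same-numbered libraries correlated at -0.0628, 0.053 and -0.0342 in their deviations from the group means. With the replicate number as a block, 17 members were higher and 21 lower, and WDR24 alone lost its call (log2 fold change 0.17, adjusted p = 0.071). Over all genes, 3831 were higher and 3857 lower with the block.

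Depth limits MITF, TFEB, SLC36A1 and SESN2, whose log2 fold changes carry standard errors of 0.11 to 0.16, and TBC1D7 could not be tested. RNA alone was measured, in 1 cell line at 1 time, so protein levels and mTORC1 activity are not covered.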
